A study of Drosophila melanogaster with 15 samples.

Results

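A set of 24 genes was described whose mRNA was more abundant after knockdown of Lint-O, and not after knockdown of L(3)mbt, in OSCs, the cultured ovarian somatic cells of *Drosophila melanogaster*. The genes were chosen by the measured values themselves, so their ratios below are descriptions and carry no test. A gene was taken where its mean control level was at least 1 CPM (count of a gene per 1000000 summed gene counts of its library), where the ratio of mean CPM in Lint-O KD to control was at least 1.4, where L(3)mbt KD was at most 15% above control, and where every Lint-O KD library lay above every control library. Of 16727 genes in the count table, 7564 had the control level required and 26 met the numeric rule. *CR43426* and *CR44169* were left out because their symbols start with CR and a number, and 24 genes remained.

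The libraries came from OSCs treated for 48 hours with RNAi against Lint-O (Lint-O KD, 3 libraries), against L(3)mbt (L(3)mbt KD, 3 libraries) or against EGFP, which these cells do not make (control, 3 libraries). All conditions share the same cell line, a culture of ovarian somatic cells without germ cells, in which a *springer* retrotransposon sits in the third intron of *l(3)mbt*. Poly-A selected RNA was sequenced, and the summed gene counts lay between 19139572 and 32274601 per library. The study calls the libraries of a condition triplicates and biological replicates, and the sources do not say how the cultures were kept apart, so p-values measure the spread between these libraries.

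L(3)mbt is a nuclear repressor that holds germline and other tissue-specific genes silent in somatic cells. Lint-O, encoded by *CG2662*, binds L(3)mbt in OSCs and works with it on chromatin. The comparison asks which transcripts differ under RNAi against Lint-O and not under RNAi against L(3)mbt. By western blot, the paper barely found Lint-O protein in OSCs depleted of L(3)mbt, although *lint-O* mRNA did not change. Depletion of Lint-O had little effect on L(3)mbt protein there. At the protein level the knockdowns thus do not deplete 1 partner each.

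The most closely linked members were *CecA1* and *CecB*, which encode cecropins, antimicrobial peptides that the Imd and Toll immune pathways induce in the fat body. They lie on opposite strands of the cecropin cluster on chromosome arm 3R, 2041 bases apart, with *CecA2* between them. The 250 bases before the start of these 3 genes are shown because this is the only place where 2 members neighbour each other. The 250 bases before *CG17681* and *Slc45-1* are shown with them because they, like *CecA1*, hold the exact GATA letters described further on. A related form, CTTATCA, lies in *CecA2* and was not searched for. Capitals mark exact letters only, wherever they lie, and other forms of a site stay in lower case. The letters searched for stand for 3 motifs, each on either strand. They are the TATA box, searched for as TATAAA, the site of GATA factors, searched for as AGATAAG, and the core of the site bound by Relish, the transcription factor of the Imd pathway, searched for as GGGGATT. The sequences are from the RefSeq Release 6 genome (dm6), 5′ to 3′ on the gene's own strand, and end at the base before the annotated start.
*CecA1*, chr3R:30210624-30210873, plus strand: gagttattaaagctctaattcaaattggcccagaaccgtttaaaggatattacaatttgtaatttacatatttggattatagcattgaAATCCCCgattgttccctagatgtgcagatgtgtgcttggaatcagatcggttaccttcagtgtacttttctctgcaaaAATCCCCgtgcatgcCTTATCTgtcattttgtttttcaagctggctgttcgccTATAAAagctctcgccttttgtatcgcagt
*CecA2*, chr3R:30211906-30212155, plus strand: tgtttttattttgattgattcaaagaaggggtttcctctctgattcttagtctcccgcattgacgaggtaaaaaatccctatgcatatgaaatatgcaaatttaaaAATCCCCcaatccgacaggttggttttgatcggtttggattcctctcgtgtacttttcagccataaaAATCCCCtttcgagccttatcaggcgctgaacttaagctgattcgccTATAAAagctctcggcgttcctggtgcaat
*CecB*, chr3R:30213798-30214047, minus strand: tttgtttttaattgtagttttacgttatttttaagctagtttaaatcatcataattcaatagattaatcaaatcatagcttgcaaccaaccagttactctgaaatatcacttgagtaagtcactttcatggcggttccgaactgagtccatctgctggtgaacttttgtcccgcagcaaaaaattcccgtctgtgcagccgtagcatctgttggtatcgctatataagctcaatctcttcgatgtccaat
*CG17681*, chr2L:18152873-18153122, plus strand: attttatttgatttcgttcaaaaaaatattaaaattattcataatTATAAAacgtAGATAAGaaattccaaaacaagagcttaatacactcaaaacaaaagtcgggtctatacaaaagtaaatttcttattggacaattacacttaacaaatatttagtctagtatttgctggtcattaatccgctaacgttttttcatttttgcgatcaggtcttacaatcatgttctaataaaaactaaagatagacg
*Slc45-1*, chr3L:9208854-9209103, minus strand: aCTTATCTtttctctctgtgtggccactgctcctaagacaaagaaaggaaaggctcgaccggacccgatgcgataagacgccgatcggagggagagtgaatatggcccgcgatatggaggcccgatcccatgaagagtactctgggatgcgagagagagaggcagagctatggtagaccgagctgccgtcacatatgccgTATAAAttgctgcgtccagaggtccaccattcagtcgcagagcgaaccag

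In the libraries as a whole, *CG2662* averaged 3.6 CPM in Lint-O KD and 20.8 CPM in control (log2 fold change −2.56, SE 0.10, edgeR quasi-likelihood test with Benjamini-Hochberg adjusted p = 2.45e-15). *l(3)mbt* averaged 76.1 CPM in L(3)mbt KD and 132 CPM in control (log2 fold change −0.85, SE 0.07, edgeR adjusted p = 5.75e-10). Each knockdown thus lowered its own target, and the L(3)mbt KD left more of its target's mRNA. The 10 OSC markers, among them *tj* and *piwi*, were all detected and summed to between 4306 and 4543 CPM in Lint-O KD, 4459 and 4601 CPM in L(3)mbt KD, and 4138 and 4344 CPM in control. Testis markers summed to between 107 and 118 CPM in Lint-O KD, 126 and 137 CPM in L(3)mbt KD, and 59.3 and 62.8 CPM in control, with 7 of the 16 at 0 in every control library. Muscle markers summed to between 254 and 267 CPM in Lint-O KD, 266 and 293 CPM in L(3)mbt KD, and 185 and 211 CPM in control, and neuron markers to between 254 and 286 CPM in Lint-O KD, 236 and 293 CPM in L(3)mbt KD, and 139 and 201 CPM in control. Fat body markers summed to between 46.7 and 64.4 CPM in Lint-O KD, 31.9 and 37.6 CPM in L(3)mbt KD, and 8.92 and 17.6 CPM in control, with 4 of the 8 at 0 in every control library. The part of these markers in the results below was not tested. Control replicate 3 stood apart in the share of reads outside annotated genes, which was 2.76% there and 7.97% and 8.45% in the other controls. That share was 4.43% to 7.38% in Lint-O KD and 2.93% to 4.14% in L(3)mbt KD.

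The 24 genes are a small remainder of the Lint-O response. Of 751 genes with the control level required and a Lint-O KD ratio of at least 1.4, 721 were more than 15% above control in L(3)mbt KD, 30 were not, and 26 of those also kept every Lint-O KD library above every control. Across the 24 genes the Lint-O KD ratio ran from 1.4 to 1.87 with a median of 1.48, beside a median of 1.01 over the 7564 genes. The L(3)mbt KD ratio ran from 0.72 to 1.14 with a median of 0.982, beside 1.00 over the 7564 genes, and was under 1 for 12 members. Both ratios share the same 3 control libraries.

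**Figure D1:**
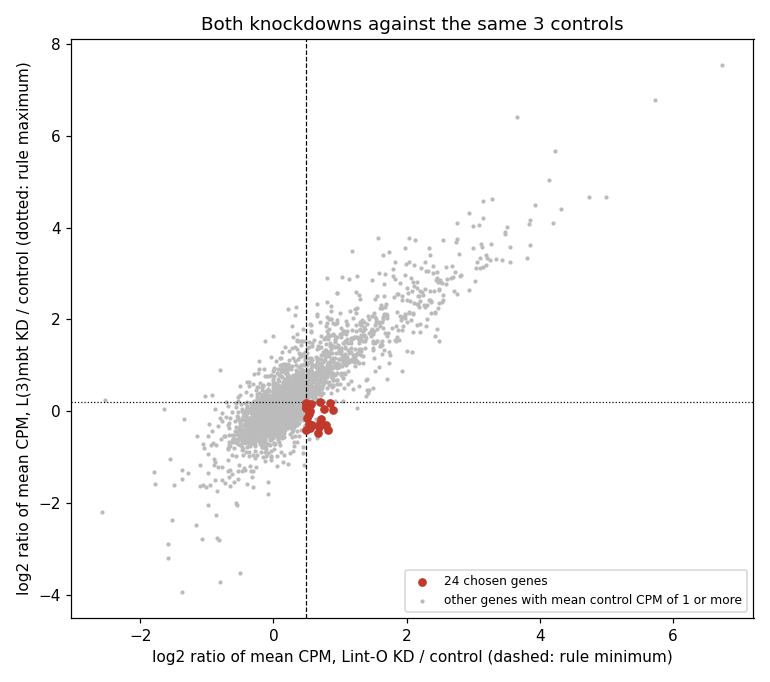
Ratio of mean CPM to control on a log2 scale, Lint-O KD on the horizontal axis and L(3)mbt KD on the vertical axis, with 1 point for each of the 7564 genes with a mean control level of at least 1 CPM. The 24 chosen genes (red) lie right of the dashed line (ratio of 1.4) and below the dotted line (15% above control), as the rule requires, and their Lint-O KD ratios end at 1.87.

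When all 8726 genes that passed the filter on low counts were fitted with edgeR at an FDR of 0.01, 1466 rose in Lint-O KD against control (16.8%) and 661 fell (7.58%). In L(3)mbt KD against control 1973 rose (22.6%) and 1391 fell (15.9%), and with scaling by library totals alone these were 2235 and 942. All 24 members passed the filter. Of them, 14 were among the genes called higher in Lint-O KD and 10 were not called, which follows in part from the rule and is no separate evidence. None was called in L(3)mbt KD against control by edgeR or DESeq2, and at an unadjusted edgeR p under 0.05 there were 4, *CtsB1* above control and *CecA1*, *CG11158* and *CG18190* below it. Between the knockdowns, 19 members were among the 596 genes called higher in Lint-O KD than in L(3)mbt KD (6.83% of those tested). Every Lint-O KD library lay above every control library in 26.5% of the 7564 genes, which the rule made 24 of 24 here, and above every L(3)mbt KD library in 19.2% of them and in 23 of the 24 members. The exception was *Mhcl*. The limits on both ratios also set a minimum for the ratio between the knockdowns, so neither count between them is separate evidence. Induced by Lint-O KD alone is therefore too strong a name for the set. Besides the 10 members not called in Lint-O KD, *Spt20*, *CtsB1* and *Mhcl* had every L(3)mbt KD library above every control.

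Most members were weakly expressed. Mean levels had a median of 5.91 CPM in Lint-O KD, 3.26 CPM in L(3)mbt KD and 3.60 CPM in control, beside a control median of 46.4 CPM over the 7564 genes. In control, 14 of the 24 were under 5 CPM and 7 were over 25 CPM. The smallest count of a member in any library was 24, for *CG44437*, and 3 counts correspond to 0.093 to 0.157 CPM in these libraries. The coefficient of variation between the libraries of a condition had a median over members of 10.1% in Lint-O KD, 12.2% in L(3)mbt KD and 10.7% in control, beside 5.12% in Lint-O KD, 5.45% in L(3)mbt KD and 5.72% in control over the 7564 genes. In RNA from a whole culture, a rise in every cell and a strong rise in a few cells cannot be told apart.

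**Figure D2:**
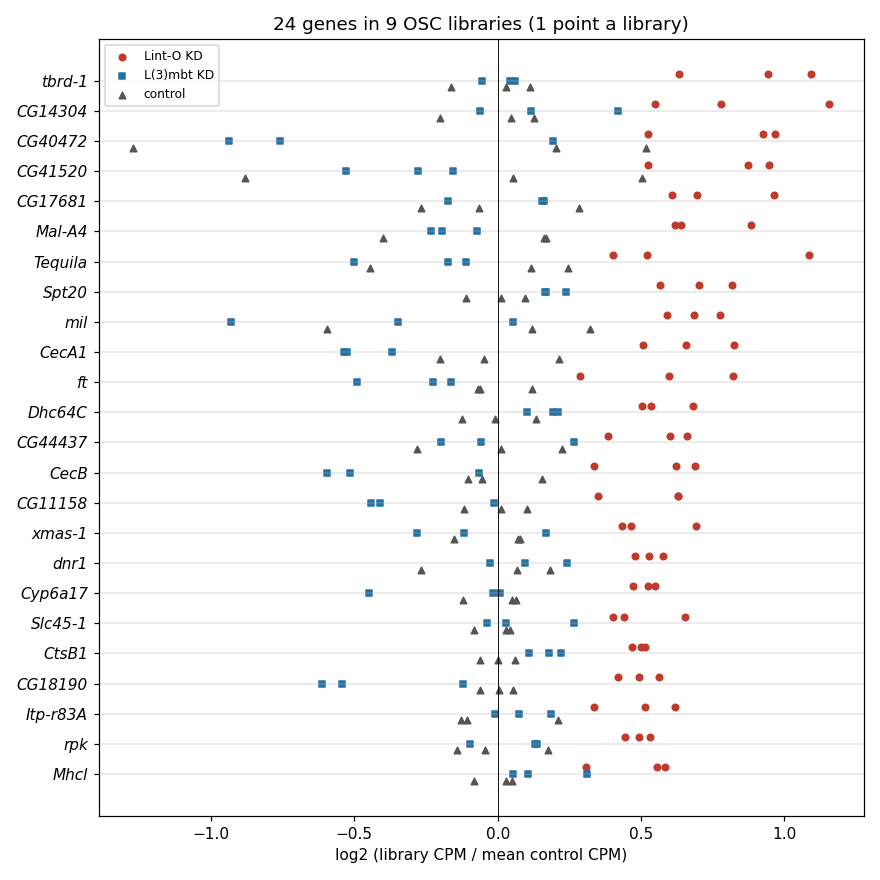
CPM of each of the 24 genes in each of the 9 libraries, as log2 of the value over the gene's mean control CPM, with genes ordered from the highest Lint-O KD ratio (*tbrd-1*) to the lowest (*Mhcl*). Circles are Lint-O KD, squares L(3)mbt KD and triangles control, and in *CG40472* and *CG41520* 1 control library lies far left of the other 2.

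Per kilobase of exon, the order of levels was set by a few genes. *CtsB1* stood first with 249 CPM per kb in Lint-O KD and 177 CPM per kb in control, followed by *rpk* with 21.2 in Lint-O KD and 15.1 in control, *CecA1* with 16.9 in Lint-O KD and 10.6 in control, and *Dhc64C* with 13.7 in Lint-O KD and 9.19 in control. The lowest was *ft*, with 0.215 CPM per kb in Lint-O KD and 0.144 CPM per kb in control over 16852 exon bases. The Lint-O KD ratio was 1.41 for *CtsB1* and 1.5 for *ft*, so genes far apart in level had like ratios.

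The highest ratio belonged to *tbrd-1*, which encodes a bromodomain protein of the testis that binds acetylated chromatin in spermatocytes. Its level was 4.54, 5.04 and 3.66 CPM in Lint-O KD, 2.46, 2.43 and 2.27 CPM in L(3)mbt KD, and 2.41, 2.55 and 2.11 CPM in control. The L(3)mbt KD and control libraries overlapped fully and all Lint-O KD libraries lay above both. The ratio to control was 1.87 in Lint-O KD and 1.01 in L(3)mbt KD, and the lowest Lint-O KD library was 1.43 times the highest control, the widest gap among the 24. *CG7229* and *CG30417*, placed in the same list of testis bromodomain genes, had no count in any control library. *fs(1)h*, the ubiquitous relative in that list, had a log2 fold change of 0.06 in Lint-O KD against control (SE 0.08, edgeR adjusted p = 0.594).

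The testis markers, a list that does not hold *tbrd-1*, were read beside it. Of the 8 tested testis markers that are no members, 7 rose in both knockdowns against control and none fell (edgeR and DESeq2, at FDR 0.01, and 0 fell at an unadjusted p under 0.05). The largest fitted changes in Lint-O KD were those of *betaTub85D*, *tomb* and *vis*. *tomb*, a regulator of the spermatocyte programme, averaged 5.10 CPM in Lint-O KD and 0.567 CPM in control (log2 fold change 3.23, SE 0.26, edgeR adjusted p = 1.01e-09) and 6.09 CPM in L(3)mbt KD (3.47, SE 0.25, adjusted p = 1.10e-10). *vis* averaged 3.79 CPM in Lint-O KD and 0.713 CPM in control (2.34, SE 0.27, edgeR adjusted p = 5.40e-07). *betaTub85D*, the testis-specific beta-tubulin, had no count in any control library and 0.385 CPM in Lint-O KD. The rule limits the level of *tbrd-1* in L(3)mbt KD, so its difference from these markers there follows from the choice and is no finding. *mil*, a member of the nucleosome assembly protein family, was 5.12, 4.50 and 4.81 CPM in Lint-O KD, 2.35, 3.10 and 1.57 CPM in L(3)mbt KD, and 3.74, 1.98 and 3.25 CPM in control. All Lint-O KD libraries lay above the rest, and L(3)mbt KD and control overlapped. Its family's founder, *Nap1*, averaged 497 CPM in Lint-O KD and 579 CPM in control and fell (log2 fold change −0.25, SE 0.06, edgeR adjusted p = 0.00109). *mil* lies in *CG5003* on the opposite strand and shares 9 exon bases with it, and *CG5003* had a ratio of 0.938 in Lint-O KD.

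Genes of chromatin and RNA export formed a further group. *Spt20*, a subunit of the SAGA histone acetyltransferase complex, was 41.9, 49.9 and 46.0 CPM in Lint-O KD, 31.7, 33.4 and 31.8 CPM in L(3)mbt KD, and 30.2, 28.5 and 26.2 CPM in control. All Lint-O KD libraries lay above the others, and all L(3)mbt KD libraries also lay above all controls, with a ratio of 1.14 that was the nearest to the limit of the rule. Of the 16 other SAGA genes tested, none was called in Lint-O KD against control by edgeR, with 1 above and 4 below control at an unadjusted p under 0.05, and DESeq2 called 2 lower. Without control replicate 1 or without control replicate 2, edgeR called 1 lower. Their median log2 fold change was −0.04 in Lint-O KD, beside 0.01 over all genes tested. *xmas-1*, annotated with the TREX-2 complex that couples transcription to mRNA export, was 3.04, 2.97 and 3.55 CPM in Lint-O KD, 2.03, 2.47 and 1.81 CPM in L(3)mbt KD, and 2.32, 2.31 and 1.98 CPM in control. RefSeq holds *xmas-1* and *xmas-2* as 1 gene, *xmas* (chrX:17151231-17159306, minus strand), and reads of the pair may be split between them. *xmas-2* averaged 45.9 CPM in Lint-O KD and 40.7 CPM in control (log2 fold change 0.14, SE 0.06, edgeR adjusted p = 0.0872). None of the 6 other TREX-2 and export genes tested was called in Lint-O KD by edgeR or DESeq2, with 1 above and 2 below control at an unadjusted p under 0.05.

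Among genes of the cytoskeleton, *Dhc64C*, the heavy chain of cytoplasmic dynein, was 194, 190 and 215 CPM in Lint-O KD, 144, 153 and 155 CPM in L(3)mbt KD, and 133, 123 and 147 CPM in control. The Lint-O KD libraries lay above all others, while L(3)mbt KD and control overlapped. The 15 other dynein and dynactin genes tested did not share the difference. None was called higher in Lint-O KD against control by edgeR or DESeq2, and none was above control at an unadjusted p under 0.05. In the other direction, 4 were below control at that p, and edgeR called 1 lower and DESeq2 2. *Lis-1*, a dynein regulator, averaged 240 CPM in Lint-O KD and 286 CPM in control and fell (log2 fold change −0.28, SE 0.06, edgeR adjusted p = 0.0015). In L(3)mbt KD it averaged 230 CPM and fell as well (−0.37, SE 0.06, edgeR adjusted p = 5.90e-05). Without Lint-O KD replicate 2 or replicate 3, none of the 15 was called lower in Lint-O KD. *Mhcl*, a gene for an unconventional myosin heavy chain, was 54.7, 66.3 and 64.9 CPM in Lint-O KD, 45.9, 54.9 and 47.6 CPM in L(3)mbt KD, and 45.8, 45.1 and 41.7 CPM in control. The highest L(3)mbt KD library passed the lowest Lint-O KD library, and all L(3)mbt KD libraries lay above all controls.

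**Figure D3:**
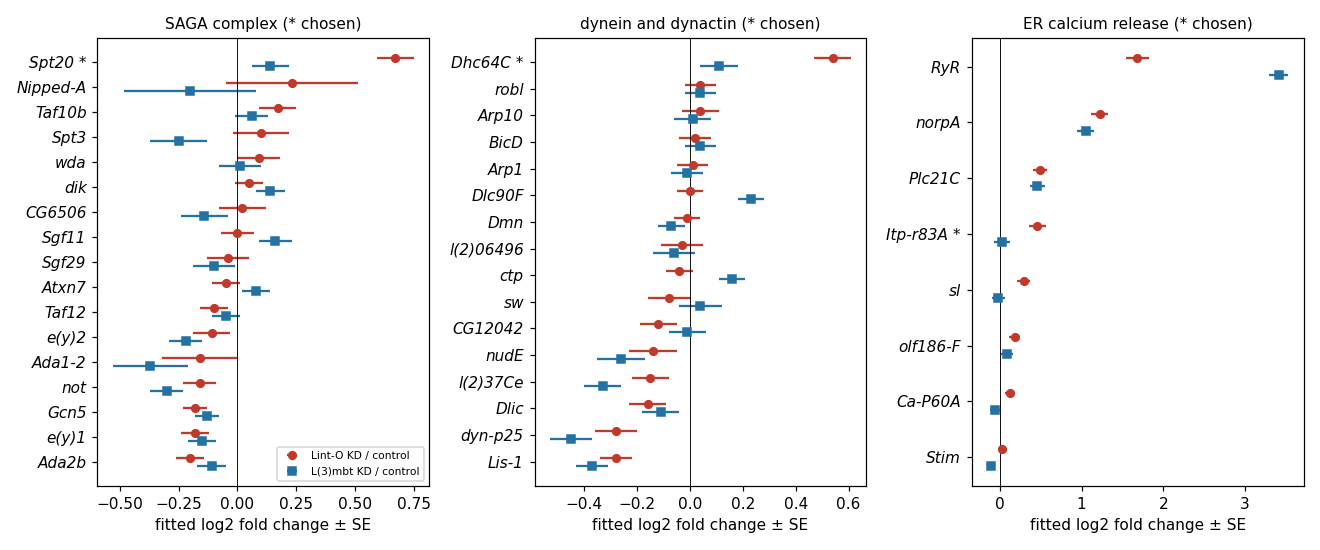
Fitted log2 fold change (edgeR, point) with its standard error (bar) for the tested genes of 3 lists, each with 1 chosen gene marked by an asterisk, Lint-O KD over control as circles and L(3)mbt KD over control as squares. *Spt20* and *Dhc64C* have the highest Lint-O KD value of their lists (0.67 and 0.54), whereas *Itp-r83A* (0.46) lies below *RyR*, *norpA* and *Plc21C*.

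Genes of the membrane and of calcium release came next. *Itp-r83A* (RefSeq *Itpr*), the receptor that releases calcium from the endoplasmic reticulum when it binds inositol trisphosphate, was 68.2, 77.1 and 82.9 CPM in Lint-O KD, 53.7, 61.5 and 56.9 CPM in L(3)mbt KD, and 62.5, 49.4 and 50.1 CPM in control. The Lint-O KD libraries lay above the rest by a narrow margin, as the lowest was 1.09 times the highest control. Of the 7 other genes for calcium release and store entry that were tested, 3 rose in both knockdowns and none fell by edgeR, and none was below control at an unadjusted p under 0.05. *RyR*, the ryanodine receptor, averaged 7.95 CPM in Lint-O KD and 2.39 CPM in control (log2 fold change 1.68, SE 0.14, edgeR adjusted p = 1.63e-09), and 26.7 CPM in L(3)mbt KD (3.41, SE 0.12, adjusted p = 7.31e-16). *norpA*, a phospholipase C, averaged 28.2 CPM in Lint-O KD and 11.9 CPM in control (1.22, SE 0.10, edgeR adjusted p = 1.23e-09), and *Plc21C*, another, 21.1 CPM in Lint-O KD and 14.8 CPM in control (0.49, SE 0.09, adjusted p = 0.000181). *rpk*, an ion channel subunit of the DEG/ENaC family, was 53.8, 55.2 and 52.0 CPM in Lint-O KD, 42, 35.7 and 41.8 CPM in L(3)mbt KD, and 37.0, 43.1 and 34.6 CPM in control. L(3)mbt KD and control overlapped and Lint-O KD lay above both. *rpk* shares 1531 exon bases with *CR44155* on the opposite strand, which was weakly detected, with 0.363 CPM in Lint-O KD, 1.31 CPM in L(3)mbt KD and 0.0986 CPM in control.

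*ft* encodes Fat, the giant atypical cadherin that acts as a receptor in planar polarity and in the Hippo growth pathway. It was 2.95, 4.27 and 3.66 CPM in Lint-O KD, 1.72, 2.07 and 2.16 CPM in L(3)mbt KD, and 2.63, 2.31 and 2.32 CPM in control. The 3 conditions did not overlap, with Lint-O KD above control and L(3)mbt KD below it. Of 5 other genes of the Fat and Dachsous branch, none was called in Lint-O KD by edgeR or DESeq2 (1 was above control at an unadjusted p under 0.05), whereas in L(3)mbt KD *d* (Dachs, log2 fold change 1.39, SE 0.14, edgeR adjusted p = 2.73e-08) and *fj* (Four-jointed, 0.70, SE 0.10, adjusted p = 5.82e-06) rose and *lft* fell (−0.41, SE 0.08, adjusted p = 0.000649). *Slc45-1*, a sugar transporter, was 47.8, 41.3 and 40.2 CPM in Lint-O KD, 31.0, 36.6 and 29.6 CPM in L(3)mbt KD, and 31.3, 31.0 and 28.7 CPM in control, again with Lint-O KD above both and no separation of the others.

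Proteases and metabolic enzymes supplied the most abundant member. *CtsB1* (RefSeq *CtsB*), the lysosomal cysteine protease cathepsin B, was 399, 390 and 403 CPM in Lint-O KD, 329, 304 and 319 CPM in L(3)mbt KD, and 270, 282 and 294 CPM in control. The 3 conditions did not overlap, and L(3)mbt KD lay between the others with a ratio of 1.13. Of 18 other autophagy and lysosome genes tested, 3 rose and 1 fell in Lint-O KD, and 4 rose and 5 fell in L(3)mbt KD. None fell in Lint-O KD without control replicate 2, Lint-O KD replicate 1 or Lint-O KD replicate 3. The 3 that rose in Lint-O KD were *LM408*, a lysosomal mannosidase (1.04, SE 0.06, edgeR adjusted p = 4.39e-12), *Npc1a* (0.39, SE 0.06, adjusted p = 1.65e-05) and *Npc2a* (0.32, SE 0.09, adjusted p = 0.00893), the last pair being carriers of lysosomal sterol, and all 3 also rose in L(3)mbt KD. *rdgB*, which starts 358 bases from *CtsB1* on the opposite strand, rose in Lint-O KD (0.45, SE 0.07, edgeR adjusted p = 1.17e-05) and in L(3)mbt KD (0.22, SE 0.07, adjusted p = 0.00812). *Tequila*, a multidomain serine protease, was 2.54, 2.34 and 3.76 CPM in Lint-O KD, 1.3, 1.6 and 1.6 CPM in L(3)mbt KD, and 2.1, 1.3 and 1.92 CPM in control. Its Lint-O KD libraries lay above all others, with replicate 3 the highest.

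*Cyp6a17*, a cytochrome P450 gene, was 11.5, 11.7 and 11.1 CPM in Lint-O KD, 7.90, 8.05 and 5.86 CPM in L(3)mbt KD, and 7.36, 8.29 and 8.37 CPM in control. Its Lint-O KD libraries were close to each other and above the rest. The gene sits in a cluster of P450 genes on arm 2R. *Cyp6a22*, 247 bases away on the same strand, averaged 30.7 CPM in Lint-O KD and 17.6 CPM in control (log2 fold change 0.77, SE 0.08, edgeR adjusted p = 9.24e-08), and 24.9 CPM in L(3)mbt KD, where it also rose (0.45, SE 0.08, adjusted p = 9.53e-05). *Cyp6a23*, 89 bases away, had a log2 fold change of 0.57 in Lint-O KD (SE 0.26, edgeR adjusted p = 0.0966) and 0.40 in L(3)mbt KD (SE 0.26, adjusted p = 0.204). *Cyp6a17* and *Cyp6a23* are close copies, so reads of the 2 may have been split between them. Over the 48 other P450 genes tested, 11 rose and 5 fell in Lint-O KD, and 13 rose and 9 fell in L(3)mbt KD. The largest fitted changes in Lint-O KD were those of *Cyp305a1* (2.62, SE 0.35, edgeR adjusted p = 3.83e-06), *Cyp311a1* (2.28, SE 0.54, adjusted p = 0.00204) and *Cyp301a1* (1.77, SE 0.11, adjusted p = 1.80e-11), and all 3 rose in L(3)mbt KD as well.

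*Mal-A4* encodes a maltase, an enzyme that splits maltose into glucose. It was 5.16, 5.08 and 6.11 CPM in Lint-O KD, 2.89, 3.15 and 2.82 CPM in L(3)mbt KD, and 3.70, 2.51 and 3.72 CPM in control. The Lint-O KD libraries lay above all others, and L(3)mbt KD lay within the range of control. In the same cluster, *Mal-A5*, the abundant maltase of these cells, averaged 720 CPM in Lint-O KD, 801 CPM in L(3)mbt KD and 626 CPM in control. It rose in L(3)mbt KD (log2 fold change 0.30, SE 0.06, edgeR adjusted p = 0.000389) and its value in Lint-O KD was 0.17 (SE 0.06, adjusted p = 0.039). *Mal-A3*, 922 bases from *Mal-A4*, was at −0.01 in Lint-O KD (SE 0.27, edgeR adjusted p = 0.985). Of the 6 other maltase genes tested none was called in Lint-O KD by edgeR or DESeq2, and 3 were above control at an unadjusted p under 0.05. Without Lint-O KD replicate 2 or control replicate 3, edgeR called 1 higher.

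**Figure D4:**
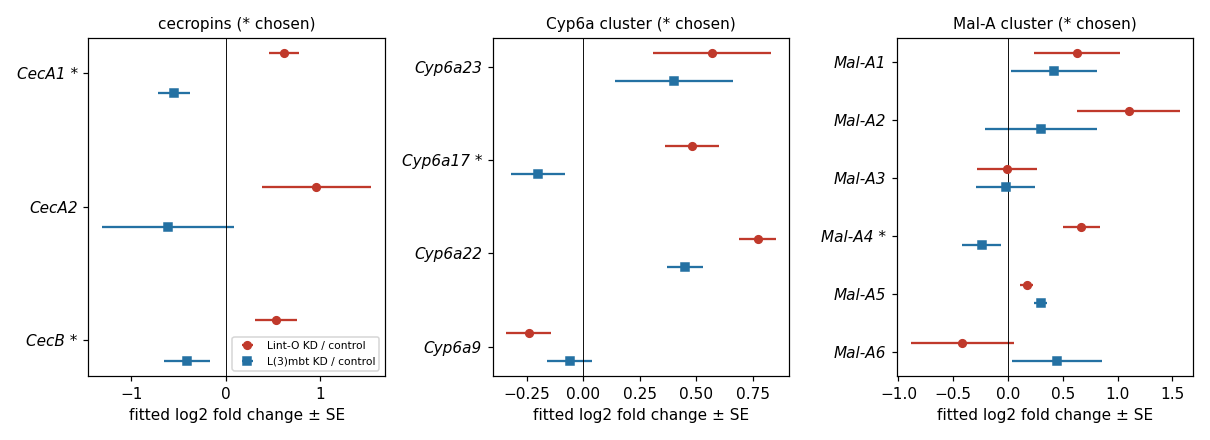
Fitted log2 fold change (edgeR, point) with its standard error (bar) for the tested genes of 3 gene clusters, Lint-O KD over control as circles and L(3)mbt KD over control as squares, with an asterisk at each chosen gene. The 3 cecropins lie right of 0 in Lint-O KD and left of 0 in L(3)mbt KD, whereas *Cyp6a22* and *Mal-A5*, next to *Cyp6a17* and *Mal-A4*, lie right of 0 in both.

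Immune genes gave 3 members. *CecA1* was 6.37, 5.67 and 5.12 CPM in Lint-O KD, 2.50, 2.79 and 2.48 CPM in L(3)mbt KD, and 3.48, 3.13 and 4.18 CPM in control. The 3 conditions did not overlap, with Lint-O KD highest and L(3)mbt KD lowest, at ratios to control of 1.59 in Lint-O KD and 0.72 in L(3)mbt KD, the lowest L(3)mbt KD ratio among the 24. *CecB* was 2.58, 2.02 and 2.46 CPM in Lint-O KD, 1.06, 1.12 and 1.53 CPM in L(3)mbt KD, and 1.78, 1.54 and 1.49 CPM in control, with ratios of 1.47 in Lint-O KD and 0.772 in L(3)mbt KD. Its highest L(3)mbt KD library overlapped with control. *CecA2*, which was below the control level required, averaged 0.588 CPM in Lint-O KD and 0.284 CPM in control (log2 fold change 0.96, SE 0.58, edgeR adjusted p = 0.217), and 0.199 CPM in L(3)mbt KD (−0.61, SE 0.70, adjusted p = 0.49). *CecC* was at 0.103 CPM in Lint-O KD and 0.136 CPM in control. The cecropin genes are similar in sequence, so reads could be split between them. *RpS7*, the abundant neighbour 1853 bases from *CecA1*, was at −0.09 in Lint-O KD (SE 0.06, edgeR adjusted p = 0.238).

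The third immune member was *dnr1*, an inhibitor of the caspase Dredd in the Imd pathway, with 15, 15.5 and 14.5 CPM in Lint-O KD, 10.2, 11.1 and 12.3 CPM in L(3)mbt KD, and 10.9, 11.8 and 8.64 CPM in control. All Lint-O KD libraries lay above the others. Of 22 other Toll and Imd genes tested, 6 rose and 3 fell in Lint-O KD, and 11 rose and 4 fell in L(3)mbt KD, with median log2 fold changes of 0.13 in Lint-O KD and 0.38 in L(3)mbt KD, beside 0.01 and −0.02 over all genes tested. Only 1 fell in Lint-O KD without Lint-O KD replicate 1 or control replicate 3, and 2 fell in L(3)mbt KD without control replicate 3 or any 1 L(3)mbt KD library. The largest fitted changes in Lint-O KD were those of *PGRP-SC2* (2.31, SE 0.21, edgeR adjusted p = 9.69e-09) and *PGRP-SA* (2.07, SE 0.27, adjusted p = 3.49e-06), both peptidoglycan recognition genes, and of *AttD*, an attacin (1.54, SE 0.31, adjusted p = 0.000475). *PGRP-SC2* and *PGRP-SA* rose further in L(3)mbt KD (3.43, SE 0.19, edgeR adjusted p = 1.43e-12, and 3.52, SE 0.24, adjusted p = 1.06e-10). *Rel*, which encodes Relish, averaged 174 CPM in Lint-O KD and 142 CPM in control (0.27, SE 0.06, edgeR adjusted p = 0.000909) and 203 CPM in L(3)mbt KD (0.46, SE 0.06, adjusted p = 6.87e-07). The summed level of the fat body markers given above was higher in both knockdowns than in control. Only 1 of these 8 markers passed the filter on low counts, so the sums do not show a rise of the markers as a set. Their part in the cecropin values was not tested.

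The remaining members have no role stated here. *CG17681* was 5.83, 7.02 and 5.49 CPM in Lint-O KD, 4.03, 3.19 and 4.01 CPM in L(3)mbt KD, and 2.99, 4.38 and 3.44 CPM in control, with L(3)mbt KD inside the range of control. *CG14304* was 3.16, 4.81 and 3.71 CPM in Lint-O KD, 2.07, 2.34 and 2.89 CPM in L(3)mbt KD, and 2.36, 1.88 and 2.23 CPM in control, and L(3)mbt KD and control overlapped. It spans *qin*, a piRNA pathway gene on the opposite strand with which it shares 21 exon bases. *qin* averaged 79.2 CPM in Lint-O KD and 16.8 CPM in control (log2 fold change 2.20, SE 0.08, edgeR adjusted p = 6.65e-15), and 101 CPM in L(3)mbt KD (2.53, SE 0.08, adjusted p = 3.22e-16). The level of *qin* was thus highest in L(3)mbt KD, where *CG14304* had a ratio of 1.13. *CG11158*, *CG18190* and *CG44437* had Lint-O KD ratios of 1.45, 1.41 and 1.47. *CG18190* was 3.62, 3.28 and 3.45 CPM in Lint-O KD, 1.68, 2.25 and 1.60 CPM in L(3)mbt KD, and 2.54, 2.46 and 2.35 CPM in control, the third gene beside *CecA1* and *ft* whose L(3)mbt KD libraries all lay below control. *CG11158* shares 237 exon bases with *CG9940* and *CG18190* 57 with *CG15084*, both on the opposite strand, and *CG44437* lies within *sno* on the same strand. These 3 partners had Lint-O KD ratios of 1.04, 0.982 and 1.12. The libraries were made with a stranded kit, so the reads carry strand, but the sources used here do not say whether counting used it. If it did not, sense and antisense reads in shared bases cannot be told apart.

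*CG41520* and *CG40472* differed from the other members in how far the control libraries lay apart. *CG41520* was 25.1, 26.4 and 19.7 CPM in Lint-O KD, 9.50, 11.3 and 12.3 CPM in L(3)mbt KD, and 14.2, 19.4 and 7.44 CPM in control. *CG40472* was 4.54, 4.41 and 3.34 CPM in Lint-O KD, 1.37, 1.21 and 2.65 CPM in L(3)mbt KD, and 2.67, 3.32 and 0.961 CPM in control. In both genes the lowest Lint-O KD library was only 1.01 times the highest control, and control replicate 3, the library with the smallest share of reads outside genes, was the lowest control. Without that library the Lint-O KD ratios were 1.41 in *CG41520* and 1.37 in *CG40472*, in place of 1.73 and 1.77. With the share of reads outside genes as a covariate, the fitted log2 fold changes in Lint-O KD were 0.91 (SE 0.12) and 1.02 (SE 0.22), in place of 0.80 (SE 0.33) and 0.86 (SE 0.43). In L(3)mbt KD the same fit gave 0.29 (SE 0.16) and 0.54 (SE 0.31), in place of −0.33 (SE 0.34) and −0.36 (SE 0.47). The sign thus changed, but with these standard errors neither fit sets a direction against control. Without control replicate 3 the fitted L(3)mbt KD values moved the other way, to −0.68 (SE 0.15) in *CG41520* and −0.82 (SE 0.28) in *CG40472*, with ratios of 0.656 and 0.581. Beyond these values, the part of that share in the result was not tested.

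**Figure D5:**
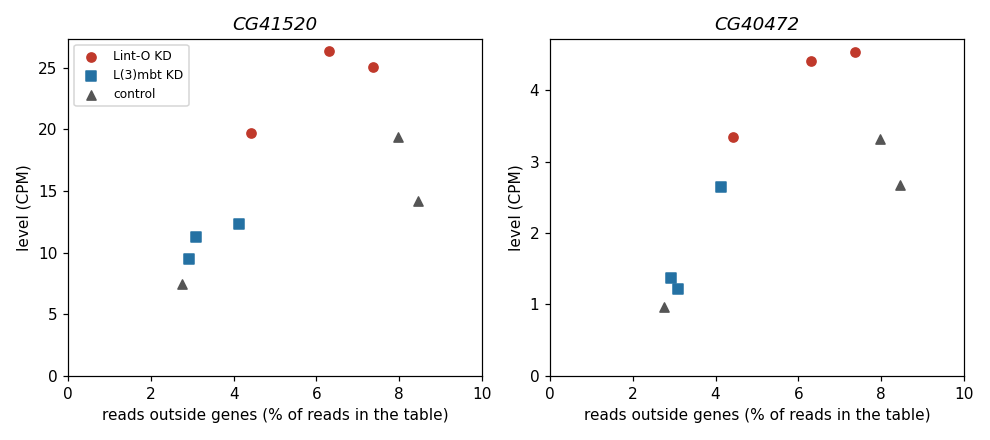
CPM of *CG41520* and *CG40472* (vertical axes, from 0) against the share of reads outside annotated genes (horizontal axes, percent) in the 9 libraries. Control replicate 3 (2.76% of reads outside genes) and the L(3)mbt KD libraries lie at the left with low levels. Each Lint-O KD library lies above every control library because the rule requires it, whatever its place on the horizontal axis.

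The rule was also applied with 1 library left out, and the library left out was then read. Without Lint-O KD replicate 1, 2 or 3 it chose 28, 25 and 30 genes, of which 21, 20 and 19 were among the 24. The library left out lay above every control in 26, 22 and 20 of the chosen genes (92.9%, 88% and 66.7%). Over all genes with the control level required this share was 38.7%, 40% and 39.6%. In the chosen genes the left-out library's median ratio to control was 1.43, 1.42 and 1.4, beside 1.48, 1.53 and 1.49 in the pair that chose them. Without L(3)mbt KD replicate 1, 2 or 3 the rule chose 25, 28 and 32 genes. The library left out was no more than 15% above the control mean in 19, 20 and 21 of them (76%, 71.4% and 65.6%). Over all genes with the control level required this share was 72.8%, 73.6% and 73.6%, so the chosen genes did not stand out. In them the left-out library's median ratio was 0.987, 1.03 and 1.08. The same control libraries, which the rule chose to be low, served both the choice and these readings, so they are given as description and support nothing.

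The thresholds cut through a continuous range of values. The members nearest to the Lint-O KD limit were *Mhcl*, *rpk* and *Itp-r83A*, at 1.4, 1.4 and 1.41, and the nearest genes outside it were *RhoGEF2* and *CG15456*, both at 1.39, and *l(3)mbt* itself, at 1.36. *l(3)mbt* averaged 179 CPM in Lint-O KD and 132 CPM in control. At the L(3)mbt KD limit, *Spt20*, *CG14304* and *CtsB1* lay inside at 1.14, 1.13 and 1.13, and *CG42748*, *Ten-m* and *CG40160* outside, the first by less than 0.01 and the others at 1.16. At the control level of 1 CPM, *CG44437*, *CecB* and *Tequila* lay inside at 1.24, 1.60 and 1.77 CPM, and *CG6299*, *CG44329* and *CG13029* outside at 0.967, 0.919 and 0.771 CPM. Overlap between Lint-O KD and control libraries kept out *CG17724* and *Haspin*.

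Properties that the rule did not use were compared next. RefSeq Release 6 held 23 of the 24 genes, all protein-coding, and 7521 of the 7564. By arm, 8 lay on 3R (34.8%, beside 23.9% of the 7521), 5 on 2R, 4 each on 3L and X, and 2 on 2L (8.70%, beside 17.7%). Median exon length was 1903 bases, beside 2160, and the genomic span had a median of 2324 bases, beside 2843. The set held both ends of the range, since 6 members were longer in exons than the 90th percentile of the 7521 genes (5967 bases) and 3 were shorter than the 10th percentile (864 bases). *ft*, *Dhc64C*, *Mhcl*, *Itp-r83A*, *Spt20* and *xmas-1* were the 6 long ones, and *CecA1*, *CecB* and *CG40472* the 3 short ones. The length used for *xmas-1* is that of the joint RefSeq gene *xmas*, so its place among the long ones is uncertain. The members are too few for a difference in these medians or shares to be read from them.

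Within 5000 bases of the members, 49 other genes had the control level required. Of these, 4 rose in Lint-O KD (*CG12177*, *Cyp6a22*, *qin* and *rdgB*) and 3 fell (*CG15100*, *CG4269* and *Socs36E*) by edgeR at FDR 0.01, beside 16.8% higher and 7.58% lower over all genes tested. Their median log2 fold change was −0.02, beside 0.01 over all genes tested.

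For 17 motifs searched on either strand in the 250 bases before the annotated start, 12 were found in at most 2 of 23 members. The GATA factor motif given above was found in 3 of 23 members (13.0%), *CG17681*, *CecA1* and *Slc45-1*, beside 3.54% of 7318 protein-coding genes with the control level required and 4.27% of all 13799. GGAATG (Scalloped) was found in 4 (17.4%, beside 8.21%), *Dhc64C*, *CG44437*, *dnr1* and *Itp-r83A*. TTTCGCGC (E2F) was found in 2 (8.70%, beside 1.08%), *xmas-1* and *Itp-r83A*. The window of *xmas-1* is that of the joint RefSeq gene *xmas*. TCAGTT, letters of the initiator, was found in 5 (21.7%, beside 14.6%, and 17.8% of all 13799). An initiator lies across the start, which the window does not hold, so these matches are not read as initiators. TATAAA was found in 7 (30.4%, beside 42.5%) and CGATA (core of the BEAF-32 site) in 12 (52.2%, beside 52.3%). The TATAAA match began 30 bases before the start in *CecA1*, 50 in *Slc45-1* and further away in the other members that hold it. *CecB*, not counted among them, holds TATATAA near its start. TATCGATA (DRE), the element of many housekeeping promoters, holds the letters CGATA. It was found in none of the 23, beside 13.4%, and 7.83% of all 13799. GGGGATT was found in *CecA1* alone (4.35%, beside 1.63%), on the opposite strand. Read along the gene's own strand, as AATCCCC, its matches began 83 and 162 bases before the start. *CecA2* held it too, at 77 and 144 bases by the same measure. These exact letters were not in the window of *CecB*, as its sequence above shows. Other forms of the Relish site were not searched for. With 23 promoters, shares of this size rest on 1 to 12 genes and are given as description.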

How the data were processed

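RNA was sequenced from 9 OSC libraries, 3 each of Lint-O KD, L(3)mbt KD and control. The deposited count table holds whole-number counts per gene. Per the study's methods the authors removed rRNA reads and mapped the rest to dm6 with HISAT2, and the submitters' processing notes also name HTSeq. Libraries were stranded (TruSeq Stranded mRNA), and tool versions, annotation and the strand setting of the counting are not given in the sources used here. Rows that name no gene were left out of library sizes (1.47% to 1.61% of reads were ambiguous). CPM for the member rule used library totals. Contrasts were fitted over all 9 libraries with edgeR 4.0.16 (R 4.3.3, TMM scaling, filterByExpr, robust quasi-likelihood test, Benjamini-Hochberg FDR 0.01), with DESeq2 1.42.0 as an alternative, and the edgeR steps were tested on simulated data. Other alternatives were DESeq2 size factors, library totals, other filters and thresholds, a replicate block, the share of reads outside genes as a covariate (added after seeing the data), and leaving out each library. The members and lists were chosen with earlier results of these data known, and the lists for cecropins, maltases, dynein, SAGA, Fat, calcium, TREX-2, nucleosome assembly and testis bromodomain genes after the members were seen, as was the GGGGATT motif. List counts leave members out. Genes named are the members, those nearest to each threshold, the targets, and, per list, up to 3 genes with the largest change past the threshold in Lint-O KD. Neighbours, further list genes and the abundant relatives of members were named after their values were seen. Gene models were RefSeq Release 6, which matched 16565 of 16727 genes. ChIP samples were not analysed here.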

Additional observations from a re-analysis of the deposited data

How the results depend on the processing

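The rule kept 24 genes with TMM-scaled CPM, 17 of them shared, and 20 with DESeq2 size factors, 14 of them shared. It gave 10 genes at a minimum control level of 5 CPM, 10 at a Lint-O KD ratio of 1.5, 60 at a ratio of 1.3 and 42 with L(3)mbt KD up to 25% above control. Leaving out 1 library gave 18 to 33 genes. Of the 24, only 13 remained without control replicate 3 and 17 without control replicate 1, beside 19 to 24 without any other library. Control replicate 3 was the lowest control for 12 of the 24. The members' median log2 ratio to control, 0.56 in Lint-O KD and −0.03 in L(3)mbt KD, was 0.53 and −0.08 with TMM-scaled CPM and 0.52 and −0.08 with DESeq2 size factors, and ran from 0.54 to 0.62 in Lint-O KD and from −0.10 to 0.03 in L(3)mbt KD when 1 library was left out, so the second has no stable sign. In all 360 refits of a member the fitted Lint-O KD value stayed above 0, between 0.36 and 1.20, a direction the choice of members fixes. The 14 members called in Lint-O KD were 9 to 13 when 1 library was left out, with 9 without control replicate 2.

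Called genes for Lint-O KD against L(3)mbt KD numbered 1402, and 2280 at an FDR of 0.05. Leaving out 1 library gave 907 to 1216, with 907 without Lint-O KD replicate 2 and 933 without L(3)mbt KD replicate 1. The cause was not tested. Same-numbered libraries of Lint-O KD and control deviated together with correlations of 0.0911 to 0.262, each of the 6 correlating best with its own number. Between Lint-O KD and L(3)mbt KD these were 0.0108 to 0.104, with 4 libraries best with their own number. Between L(3)mbt KD and control they were −0.212 to −0.128, with 0 such libraries. The main fits did not pair libraries by number, although the Lint-O KD and control libraries may be paired. With the replicate block, 2258 genes were called in Lint-O KD against control (2127 without), 3578 in L(3)mbt KD against control (3364 without) and 1485 between the knockdowns. Of 1678 list counts recomputed, 1479 stayed within 1.5 times the count given. Low counts limit precision for members such as *CG44437*, which had 24 counts in its lowest library.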

Other observations

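Outside the 24 genes, 2 genes without a protein-coding symbol met the numeric rule. *CR44169* had ratios to control of 1.61 in Lint-O KD and 1.12 in L(3)mbt KD, and *CR43426* of 1.48 in Lint-O KD and 1.11 in L(3)mbt KD. Without the condition that Lint-O KD and control libraries do not overlap, which was dropped after seeing the data, 26 genes met the rule in place of 24. The genes added were *CG17724*, with ratios of 1.58 in Lint-O KD and 0.663 in L(3)mbt KD at a mean control level of 5.97 CPM, and *Haspin*, a histone kinase gene, with 1.46 in Lint-O KD and 0.656 in L(3)mbt KD at 49.2 CPM.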
